A study of Danio rerio with 3 samples.

Results

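Lateral FP was a class of 462 cells among 6264 single cells sorted from zebrafish embryos, and was the second largest of the 28 classes in the authors' integrated annotation. Its members were taken by that deposited class name alone, so no measured value chose them here. All 462 fell in 1 cluster of the integrated clustering, and that cluster held no other cell. The embryos were wild type, untreated and carried the Tg(olig2:EGFP) transgene at all stages, and EGFP-positive cells were sorted from them at 24, 36 and 48 hours post fertilisation (hpf). There was 1 library per stage, with 194 Lateral FP cells of 1826 at 24 hpf, 133 of 2044 at 36 hpf and 135 of 2394 at 48 hpf. No stage has a replicate, so differences between stages are described with no test, and the labels do not say how many embryos went into a library.

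The floor plate is a strip of cells at the ventral midline of the neural tube and a source of Hedgehog signal. In zebrafish its lateral part flanks the medial floor plate, lies ventral to the olig2-expressing pMN domain, which makes motor neurons and cells of the oligodendrocyte lineage, and is marked by the transcription factor gene nkx2.2a. In that species lateral floor plate cells are progenitors that give rise to a set of cerebrospinal fluid-contacting neurons and, later, to perineurial glia around motor nerves. The transgene marks the pMN lineage, yet the sort also collected cells that by name lie outside it, for a reason that was not tested. The tables used here list cells and not genes, so the markers nkx2.2a and foxa2 could not be set against the class name, and Lateral FP below means the authors' class.

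Library depth differed between the stages and touches every result below. The median over all cells was 8935.5 unique molecular identifiers (UMIs, single RNA molecules counted) per cell at 24 hpf, 4569 at 36 hpf and 5774.5 at 48 hpf. The 48 hpf library differed from the others in its set of cell barcodes. Among its Lateral FP cells, 114 of 135 (84.4%) had a barcode whose first 7 bases began no barcode of the other libraries, against 2 of 194 at 24 hpf and 1 of 133 at 36 hpf. Barcode set and stage cannot be told apart for 48 hpf. Among all cells 7 full barcodes occurred in more than 1 library, and 1 of them belonged to a Lateral FP cell.

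The class was recognised in much the same cells by the annotation of each stage alone. Of the integrated Lateral FP cells, 192 of 194 (99.0%, 95% exact binomial interval 96.3 to 99.9) had the same name in the 24 hpf table, 126 of 133 (94.7%, 89.5 to 97.9) in the 36 hpf table and 131 of 135 (97.0%, 92.6 to 99.2) in the 48 hpf table. The few others were mostly progenitors of the pMN by their stage name. At 36 hpf 4 of the 7 were pMN2. Chosen after their values were seen, the remaining names were NP and pMN2 (1 cell each) at 24 hpf, pMN1 (2) and MN1 (1) at 36 hpf, and pMN1 (2), MN1 (1) and RG (1) at 48 hpf. The 7 cells at 36 hpf had a median of 13197 UMIs, against 4487.5 in the 126 cells that both tables named Lateral FP.

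In the other direction the match was looser at the later stages. The stage tables named 207, 164 and 175 cells Lateral FP at 24, 36 and 48 hpf, and 92.8%, 76.8% and 74.9% of these were Lateral FP in the integrated table. Cells named Lateral FP by the stage table alone numbered 15, 38 and 44. At 36 hpf these were mainly Pre-V3 IN (18 cells, precursors of a ventral interneuron class by name), NM Progenitor (11) and FP (6) in the integrated table. At 48 hpf they were mainly CMN Precursor (13), Pre-V3 IN (11), NM Progenitor (10) and FP (5), and none was of a pMN class.

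**Figure D1:**
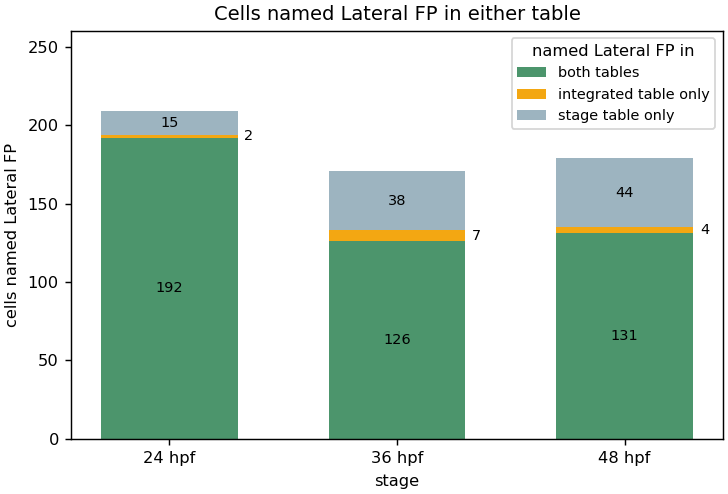
Cells named Lateral FP (vertical axis, count) in both tables, in the integrated table only or in the stage table only, by stage. The cells named in both number 192, 126 and 131, and those named in the stage table only number 15, 38 and 44.

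Lateral FP made up 10.6%, 6.51% and 5.64% of the cells at 24, 36 and 48 hpf, with intervals of 9.25 to 12.1, 5.48 to 7.66 and 4.75 to 6.64. Its cells carried 10.1%, 6.16% and 5.35% of the UMIs of the libraries, close to its share of cells. A difference between stages was called where the shares were at least 2-fold apart with exact intervals that did not overlap, and no pair of stages met this for Lateral FP. By that rule, and over classes with at least 1% of the cells at either stage, 17.4% of 23 classes had a lower share at 36 than at 24 hpf, 20% of 25 at 48 than at 24 hpf and 23.1% of 26 at 48 than at 36 hpf. Among cells matched on UMI count the Lateral FP shares were 10.9%, 6.76% and 6.13%, and so kept their order. All intervals here and below are for counting error alone and leave out variation among embryos, sorts and libraries.

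Most Lateral FP cells were called as cycling at 24 hpf, and few were at 48 hpf. The authors scored each cell for genes of the S phase (DNA synthesis) and of the G2M phase (growth before division and division itself). In every cell the call was other than G1 where at least 1 score was above 0. S calls were 83 of 194 cells (42.8%, 35.7 to 50.1) at 24 hpf, 32 of 133 (24.1%, 17.1 to 32.2) at 36 hpf and 10 of 135 (7.41%, 3.61 to 13.2) at 48 hpf. G2M calls were 70 cells (36.1%, 29.3 to 43.3), 26 cells (19.5%, 13.2 to 27.3) and 19 cells (14.1%, 8.69 to 21.1). By these integrated calls S outnumbered G2M at the earlier stages and not at 48 hpf. The G1 calls made up the rest, with 21.1%, 56.4% and 78.5%.

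Cells called S or G2M were 3.67-fold less frequent in Lateral FP at 48 than at 24 hpf and 2.03-fold less frequent at 48 than at 36 hpf, which met the size rule. The 1.81-fold lower share at 36 than at 24 hpf did not. The 2.03-fold ratio lay just past the rule, and that call was lost under some of the settings given below. S calls accounted for more of the difference than G2M calls, being 5.78-fold lower at 48 than at 24 hpf, where G2M calls were 2.56-fold lower. Between 48 and 36 hpf S calls were 3.25-fold lower and G2M calls 1.39-fold lower, the second of which was not called. Among classes with at least 20 cells at both stages, 3 of 13 (23.1%) had a lower share of S or G2M calls at 48 than at 24 hpf, namely Lateral FP, CMN and NP2. Between 48 and 36 hpf 1 of 16 (6.25%) did, and that was Lateral FP. Between 36 and 24 hpf 2 of 15 (13.3%) did, and Lateral FP was not among them. The integrated shares of 78.9%, 43.6% and 21.5% in Lateral FP stand beside 64.3% (61.9 to 66.6), 38.3% (36.1 to 40.5) and 452 of 2259 cells (18.4 to 21.7%) over all cells outside it at 24, 36 and 48 hpf, so the share was lower at each later stage in the rest of the libraries too. Many of the classes counted are neurons with few such calls at any stage, which limits how far their share can be lower. In pMN1 and pMN2 all cells were called at each stage, so only some of the classes could meet the rule.

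The calls at 48 hpf rested on scores barely above 0. The median S score of the cells called S was 0.413 at 24 hpf, 0.389 at 36 hpf and 0.0240 at 48 hpf. The median G2M score of the cells called G2M was 0.550, 0.619 and 0.0386 in the same order. At 48 hpf the highest S score of any Lateral FP cell was 0.166, where the highest had been 1.03 at 24 hpf and 0.998 at 36 hpf. The S scores had in effect lost their upper tail. The highest G2M score was still 0.902 at 48 hpf, against 1.06 at 24 hpf and 1.25 at 36 hpf, so single cells with a high G2M score remained. In NP1 the highest S score was 0.715 at 24 hpf, 0.648 at 36 hpf and 0.315 at 48 hpf. Over all cells outside Lateral FP it was 1.36, 1.57 and 1.42.

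Counting only cells whose higher score was above 0.1, 147 of 194 cells (75.8%, 69.1 to 81.6) were in S or G2M at 24 hpf, 49 of 133 (36.8%, 28.6 to 45.6) at 36 hpf and 7 of 135 (5.19%, 2.11 to 10.4) at 48 hpf. This kept 96.1% of the S or G2M calls at 24 hpf, 84.5% at 36 hpf and 24.1% at 48 hpf. In NP1, a class of neural precursors, it kept 75.4%, 62.2% and 46.3%, and in all cells outside Lateral FP 93.1%, 94.5% and 78.5%. With this limit the Lateral FP share was also called lower at 36 than at 24 hpf (log2 ratio -1.04). Its log2 ratio of 48 over 24 hpf was -3.87, where it was -1.88 with all calls. By the same limit 3 of 13 classes (23.1%) were lower at 48 than at 24 hpf, 4 of 15 (26.7%) at 36 than at 24 hpf, and 1 of 16 (6.25%), Lateral FP, at 48 than at 36 hpf.

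**Figure D2:**
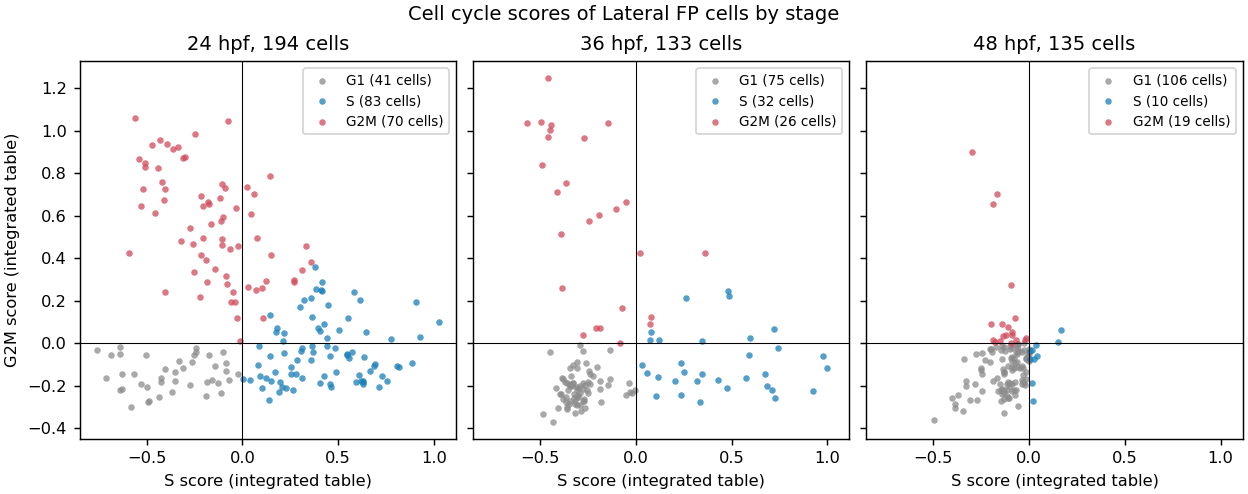
S score (horizontal axis) and G2M score (vertical axis) of each Lateral FP cell in the integrated table, in score units with no scale of their own, with 1 panel per stage and colours for the deposited phase call. At 24 and 36 hpf the cells spread along both axes to about 1, and at 48 hpf nearly all lie close to 0, with the highest S score at 0.166.

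The G1 cells changed as well. Their median S score was -0.355 at 24 hpf (quartiles -0.533 and -0.183), -0.308 at 36 hpf (-0.347 and -0.257) and -0.102 at 48 hpf (-0.161 and -0.0587). The G1 cells of 48 hpf therefore lay close to the limit of a call on the S axis. Their median G2M scores were -0.146, -0.214 and -0.123. In V3 IN, a class of ventral interneurons, the median S score of G1 cells was -0.308, -0.312 and -0.337, with no such shift in that class. No other class was set beside it for this score, so the shift is not called particular to Lateral FP. Over all Lateral FP cells the median S score was 0.0274, -0.264 and -0.0955 and the median G2M score 0.0123, -0.177 and -0.0852. The standard deviation of the S score was 0.407, 0.357 and 0.108, so the 48 hpf cells were much more alike in it than the earlier ones.

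The 2 deposited sets of scores gave the same phase to 180 of 194 Lateral FP cells (92.8%) at 24 hpf, 126 of 133 (94.7%) at 36 hpf and 103 of 135 (76.3%) at 48 hpf. At 48 hpf the cells in common were mostly G1, and the S or G2M calls mostly fell on different cells. Of the Lateral FP cells called S or G2M in the integrated table, the stage table also called 153 of 153 at 24 hpf, 57 of 58 at 36 hpf and 8 of 29 at 48 hpf (27.6%, 12.7 to 47.2). At 48 hpf the stage table put 15 of the 19 G2M cells and 6 of the 10 S cells in G1, and called S in 10 cells that were G1 in the integrated table. Among all other cells of the 48 hpf library, 343 of 452 (75.9%, 71.7 to 79.8) of the integrated calls were S or G2M in the stage table too. In the other direction the classes were alike. Of the 48 hpf stage-table calls, 8 of 18 in Lateral FP (44.4%) and 343 of 781 in all other cells (43.9%) were also integrated calls. All other cells had the same phase in both sets in 91.8%, 96.9% and 73.6% at 24, 36 and 48 hpf. The lower match at 48 hpf was thus not particular to Lateral FP. The stage tables gave Lateral FP 82.0% (75.8 to 87.1), 45.1% (36.5 to 54.0) and 13.3% (8.10 to 20.3) of cells in S or G2M, against 60.6%, 37.2% and 34.6% in all other cells. By these calls Lateral FP was again lower at 48 than at 24 hpf (6.15-fold) and at 48 than at 36 hpf (3.38-fold). Of the classes, 13.3% were lower and 0% higher at 36 than at 24 hpf, 15.4% lower and 30.8% higher at 48 than at 24 hpf, and 6.25% lower and 50% higher at 48 than at 36 hpf, where the lower one was Lateral FP. By the stage tables S calls outnumbered G2M calls at 48 hpf too, with 13 S and 5 G2M cells. In fold terms G2M calls differed more between 48 and 24 hpf (9.46-fold lower) than S calls (4.87-fold lower). Which phase had the larger fold difference thus depended on the table. As a percent of cells, stage-table S calls were 46.9% at 24 hpf and 9.63% at 48 hpf, and G2M calls 35.1% and 3.70%. Cells called in both tables were 78.9%, 42.9% and 5.93% (2.59 to 11.3) of the class, and at 48 hpf this was close to the 5.19% found with the score limit of 0.1.

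V3 IN, an interneuron class by name, gives a level of such calls for comparison. In it, S or G2M calls of the integrated table were 0 of 28 cells at 24 hpf, 2 of 142 (1.41%) at 36 hpf and 2 of 159 (1.26%, 0.153 to 4.47) at 48 hpf. The 21.5% of Lateral FP at 48 hpf (14.9 to 29.4) was above that level. In the stage table of 48 hpf Lateral FP had 13.3% (8.10 to 20.3) of its cells in S or G2M and V3 IN 17.0% (27 of 159, 11.5 to 23.7), so the Lateral FP share was not above that of the interneuron class there. Stage-table scores above 0.1 were found in 5 of 135 Lateral FP cells and 1 of 159 V3 IN cells. With the score limit of 0.1, Lateral FP kept 5.19% (2.11 to 10.4) and V3 IN 0 of 159 cells (0 to 2.29), and these intervals overlap. The median depth at 48 hpf was 5576 UMIs in Lateral FP and 7130 in V3 IN.

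**Figure D3:**
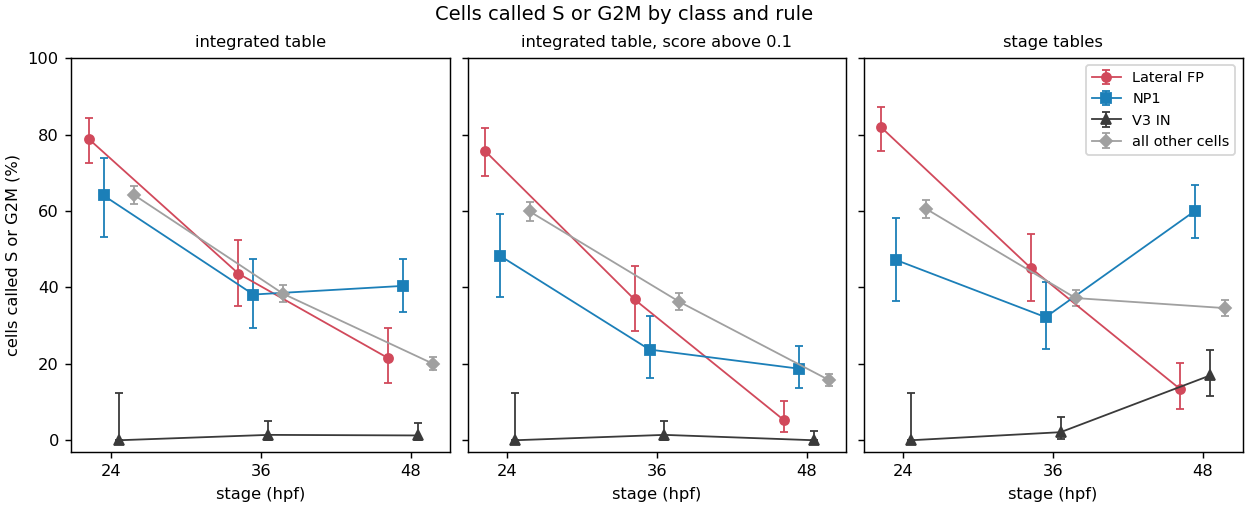
Share of cells called S or G2M (vertical axis, percent, with exact 95% binomial intervals) by stage in Lateral FP, NP1, V3 IN and all cells outside Lateral FP, by the integrated calls, by these calls with a score above 0.1 and by the stage tables. Lateral FP goes down over the stages in all panels, to 21.5%, 5.19% and 13.3% at 48 hpf.

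Between 5000 and 8000 UMIs the exact intervals of 24 and 36 hpf overlapped, and that of 48 hpf lay below both. In this band, the only one with at least 10 Lateral FP cells at all stages, S or G2M calls were 36 of 64 cells (56.3%, 43.3 to 68.6) at 24 hpf, 28 of 43 (65.1%, 49.1 to 79.0) at 36 hpf and 9 of 48 (18.8%, 8.95 to 32.6) at 48 hpf. The lower share at 36 than at 24 hpf was thus not seen within this band. In Lateral FP cells matched on UMI count by weighting bins (weights adding to 55 per stage, with no cells drawn) the shares were 60.6%, 62.8% and 18.4%. Library depth was also lower at 36 than at 24 hpf, and its part in the difference seen in all Lateral FP cells was not tested. Few 24 hpf cells lay under 5000 UMIs and few 36 hpf cells at 8000 or more, so matching took much of its weight from this same band. The band and the matched cells are thus not separate results, and in both the 36 hpf share was not the lower one. Under 5000 UMIs it was, with 20 of 78 cells at 36 hpf (25.6%, 16.4 to 36.8) against 10 of only 14 cells at 24 hpf (71.4%, 41.9 to 91.6). This difference met the size rule. At 8000 UMIs or more the 36 hpf share was also lower, with 83.3% of 12 cells against 92.2% of 116, and these intervals overlap. Averaged over 3 bands below 9048 UMIs, with edges at 4385 and 6658, the share was 53.3% at 36 hpf and 60.7% at 24 hpf. That difference was not called (log2 ratio -0.19). Among these 3 bands the 36 hpf share was lower only under 4385 UMIs, at 24.6% of 61 cells against 69.2% of 13. Their intervals did not overlap (14.5 to 37.3 and 38.6 to 90.9). Between 4385 and 6658 UMIs it was 47.9% against 42.3%, and from there to 9048 UMIs 87.5% against 70.7%. From 9048 UMIs upward the 36 hpf share was lower again, at 75% of 8 cells against 100% of 80. That band had too few cells at 36 hpf for the mean. These comparisons cannot separate depth from stage. In both libraries the cells called S or G2M had a higher median UMI count than the G1 cells. At 24 hpf 116 of 194 cells lay above the band of 5000 to 8000 UMIs, and at 36 hpf 78 of 133 lay below it. Equal UMI counts thus favour the shallower cells of 24 hpf and the deeper cells of 36 hpf.

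Within the 24 and 36 hpf libraries the S or G2M share was highest in Lateral FP cells with 8000 UMIs or more. At 48 hpf it was lower in these deep cells than under 5000 UMIs by the integrated calls but not by the stage-table calls. At 24 hpf 71.4% of the 14 Lateral FP cells under 5000 UMIs (41.9 to 91.6) were called S or G2M. Of the 116 cells with 8000 UMIs or more 92.2% (85.8 to 96.4) were, and these intervals overlap. Between 5000 and 8000 UMIs the 24 hpf share was lower than either, at 56.3% of 64 cells. At 36 hpf the shares under 5000 UMIs and at 8000 UMIs or more were 25.6% of 78 cells and 83.3% of 12. At 48 hpf they were 32.1% of 56 cells (20.3 to 46.0) and 6.45% of 31 cells (0.791 to 21.4) by the integrated calls, and 12.5% and 12.9% by the stage table. At 12000 UMIs or more all 17 cells were called at 24 hpf (80.5 to 100), 3 of 4 at 36 hpf and 1 of 16 at 48 hpf (6.25%, 0.158 to 30.2). Below 5000 UMIs the 48 hpf cells did not have the lower share by the integrated calls, with 32.1% at 48 hpf against 25.6% at 36 hpf, whereas by the stage tables these were 12.5% and 25.6%. Averaged over the 3 bands below 8000 UMIs, the integrated calls gave 27.8% at 48 hpf and 40.3% at 36 hpf, which did not meet the size rule (log2 ratio -0.53). Over the 3 bands from 5000 UMIs upward they gave 10.6% at 48 hpf and 82.4% at 24 hpf, which did (log2 ratio -2.96).

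**Figure D4:**
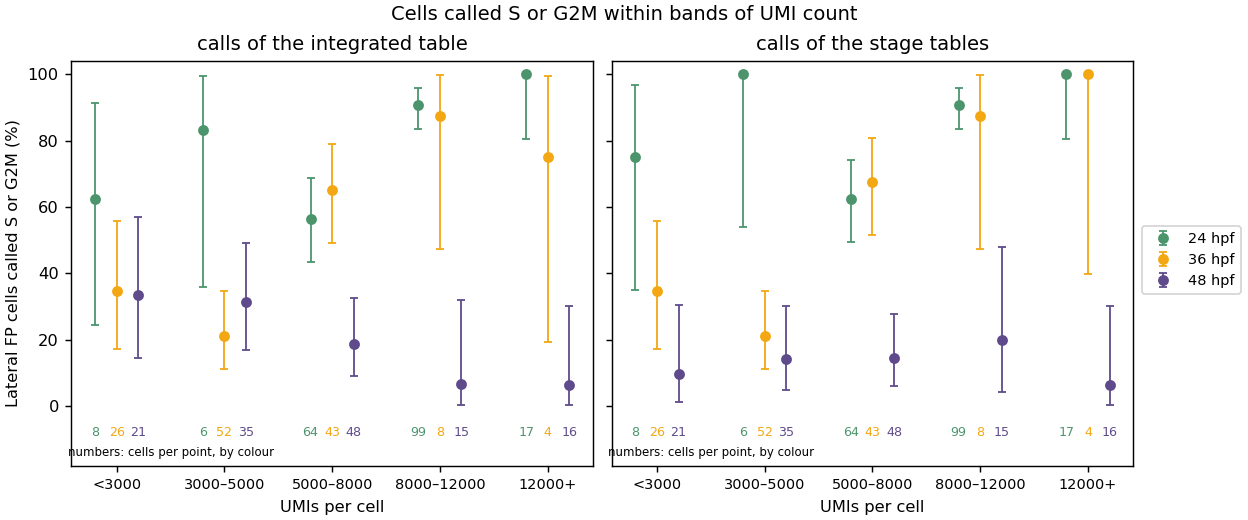
Share of Lateral FP cells called S or G2M (vertical axis, percent, with exact 95% binomial intervals) within bands of UMIs per cell (horizontal axis), by stage, for the calls of both kinds of table, with the number of cells under each point. From 5000 UMIs upward the 48 hpf points lie at or below 20% and the 24 and 36 hpf points above 55%.

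The UMI count per cell followed the library and, at 24 and 36 hpf, the phase. The median Lateral FP cell had 8636.5 UMIs at 24 hpf, 4637 at 36 hpf and 5576 at 48 hpf, with single cells between 1505 and 14458, 627 and 17078, and 631 and 29212 UMIs, where all other cells had medians of 9032.5, 4566 and 5783. The class was thus about as deep as the rest of its library. At 24 hpf the median was 6783 UMIs in G1 cells, 8629 in S cells and 10752 in G2M cells, and at 36 hpf it was 4150, 5465 and 6742. At 48 hpf the order was lost by the integrated calls, with 6110.5 UMIs in the 106 G1 cells, 4127 in the 10 S cells and 4672 in the 19 G2M cells. By the stage-table calls the 48 hpf median was 5824.5 UMIs in 18 S or G2M cells and 5495 in 117 G1 cells. The 48 hpf class also had a long upper tail, with 16 cells (11.9%) at 12000 UMIs or more and up to 5266 detected genes in a cell, and 15 of these 16 were called G1. Outside Lateral FP 11.4% of the 48 hpf cells were that deep, and 40.7% of those were called S or G2M. The treatment of doublets is not stated in the labels, and without genes a doublet caller had nothing to run on.

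Detected genes per Lateral FP cell had medians of 2153 at 24 hpf (quartiles 1857 and 2406), 1405 at 36 hpf (1145 and 1717) and 1901 at 48 hpf (1514 and 2412). Between 5000 and 8000 UMIs they were 1854.5, 1717 and 2057.5, so at a like depth the 48 hpf cells had the most genes. All other cells of that band had 1739, 1589.5 and 2031.5 genes, in the same order of stages. The pattern therefore held across the libraries and not in Lateral FP alone. The share of mitochondrial UMIs was 0.671% at 24 hpf (quartiles 0.559 and 0.804), 0.982% at 36 hpf (0.790 and 1.25) and 1.94% at 48 hpf (1.38 and 2.59). The other cells of each library had medians of 0.689%, 1.06% and 2.37%, and Lateral FP was below them at each stage. In Lateral FP at 24 hpf the median was 0.625% in G1, 0.689% in S and 0.669% in G2M cells. It was 0.977%, 1.12% and 0.919% at 36 hpf, and 1.87%, 2.33% and 2.03% at 48 hpf, where S had 10 cells. Within each stage the exact intervals of these medians overlap.

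**Figure D5:**
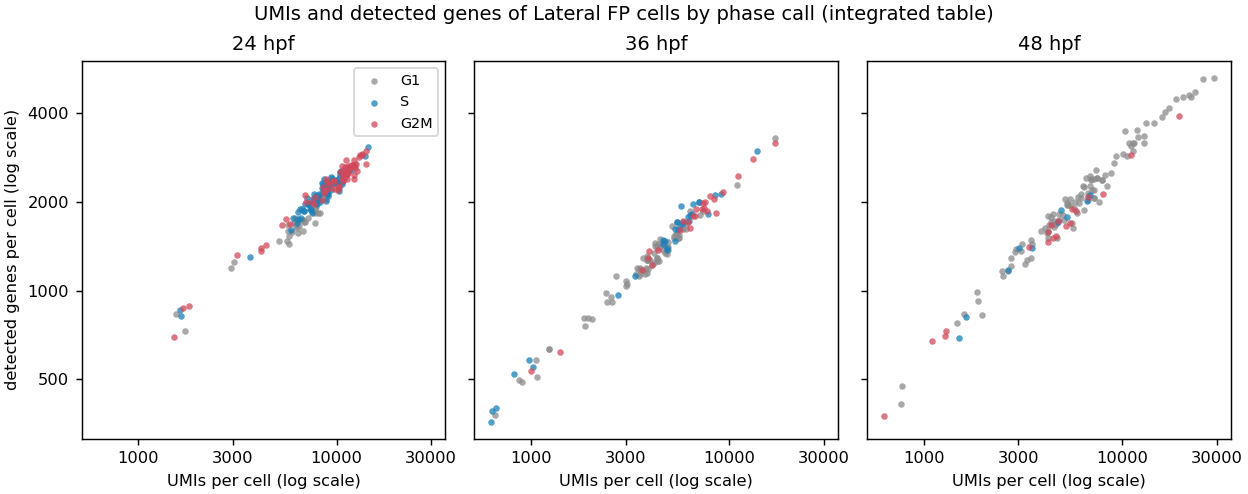
UMIs per cell (horizontal axis, log scale) and detected genes per cell (vertical axis, log scale) of the Lateral FP cells, by stage, coloured by the phase call of the integrated table. At 24 and 36 hpf the deeper cells are mostly called S or G2M, and at 48 hpf the cells from 12000 UMIs upward are G1 but for 1.

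Set beside other classes and over all depths, Lateral FP had a higher share of S or G2M calls than the neural precursors NP1 at the first stage and a lower one at the last. Against NP1, the integrated shares were 78.9%, 43.6% and 21.5% in Lateral FP and 64.0%, 38.1% and 40.4% in NP1 at 24, 36 and 48 hpf. With a score above 0.1 they were 75.8%, 36.8% and 5.19% (2.11 to 10.4) in Lateral FP and 48.3%, 23.7% and 18.7% (13.6 to 24.8) in NP1. Lateral FP was thus above NP1 at 24 hpf and below it at 48 hpf by either rule. The 24 hpf intervals of the integrated shares overlap, at 72.4 to 84.4 and 53.2 to 73.9. Between 5000 and 8000 UMIs at 24 hpf the order was the other way. There 56.3% of 64 Lateral FP cells (43.3 to 68.6) and 69.2% of 26 NP1 cells (48.2 to 85.7) were called, and these intervals overlap too. In pMN2, a class of pMN progenitors, all of 125, 143 and 100 cells were called S or G2M at 24, 36 and 48 hpf, also with a score above 0.1. Their median G2M score was 0.919, 0.860 and 0.699. Between 5000 and 8000 UMIs at 48 hpf, 18.8% of the Lateral FP cells (8.95 to 32.6), 38.2% of 102 NP1 cells (28.8 to 48.4) and 17.2% of 756 cells outside Lateral FP (14.6 to 20.1) were called S or G2M. The differences between classes come from 1 library per stage and were not tested. The classes were built from the expression of the same cells, and the labels do not say whether cell cycle genes entered the clustering.

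FP and Pre-V3 IN, near to Lateral FP by name or by stage-table label, were small classes. They were not the only ones to share the label. NM Progenitor held 96, 13 and 19 cells at 24, 36 and 48 hpf, of which 7, 11 and 10 had the stage-table label. Of these labelled cells 6, 7 and 7 were called S or G2M. CMN Precursor had 13 labelled cells at 48 hpf, with 2 called. FP held 13, 6 and 7 cells at 24, 36 and 48 hpf, of which 2, 3 and 0 were called S or G2M. Pre-V3 IN held 17, 26 and 45 cells, of which 1, 1 and 0 were called, so 0 of 45 at 48 hpf allows up to 7.87%. Pre-V3 IN thus had few calls at the stages where Lateral FP had most. By the stage calls of 48 hpf, 22 of the same 45 Pre-V3 IN cells (48.9%) were in S or G2M, with no cell above 0.1 in the integrated scores.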

How the data were processed

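EGFP-positive cells were profiled with a Chromium 3' kit, per the labels' protocols. The submitters' processing notes name Cell Ranger, Seurat and the build GRCz11, without versions or settings. The authors deposited 4 tables of cells, 1 per stage and 1 integrated. Per the file headers, UMIs and detected genes are raw counts for each cell. The deposited mitochondrial percent reached 4.995% at most, and no cell had fewer than 504 UMIs, so the cells had been filtered. The S and G2M scores were deposited per cell and are relative to the cells scored together. Phase calls followed the scores in all 6264 cells. Cells were matched between tables by barcode and stage.

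Shares have exact (Clopper-Pearson) 95% intervals, and in ratios 3 cells stood in for a count of 0. Bands with under 10 cells were left out of band means. Matching used 20 bins of log UMI count, each bin weighted by its smallest stage. No p-value was computed. The intervals and the size rule were tested on simulated cells. Classes named were those like Lateral FP by name or phase calls, and stage-table names given to at least 3 of its cells. V3 IN fell outside this rule and was not among the classes planned for comparison. The members, classes and rules were chosen with earlier results of these data known. The tools were scipy 1.17.1, pandas 2.3.3, numpy 2.4.6 and matplotlib 3.10.9 under Python 3.11.15.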

Additional observations from a re-analysis of the deposited data

Results flagged for a closer look

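In Lateral FP the cells called S or G2M by the integrated table had more UMIs than the G1 cells at the earlier stages and fewer at 48 hpf. The difference of the medians was 2373 UMIs at 24 hpf (9156 in S or G2M cells and 6783 in G1 cells), 1687 at 36 hpf (5837 in S or G2M and 4150 in G1) and -1438.5 at 48 hpf (4672 in S or G2M and 6110.5 in G1). By these calls the sign thus differed between stages, each with 1 library, and the difference between them was not tested. The exact intervals of the 48 hpf medians overlap, at 3387 to 5474 UMIs in S or G2M cells and 5256 to 6920 in G1 cells. By the stage-table calls the 48 hpf difference was 329.5 UMIs (5824.5 in 18 S or G2M cells and 5495 in 117 G1 cells), and over the 8 cells called in both tables and the 96 called G1 in both it was 535. In all other cells of the 48 hpf library it was 2555 by the integrated calls.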

How the results depend on the processing

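The lower share of S or G2M calls at 48 than at 24 hpf was called under all 12 alternatives, with log2 ratios from -4.33 to -1.71. At 48 over 36 hpf (-1.02) the call ended with the deepest 5% of cells left out (-0.94), at no more than 3% mitochondrial reads (-0.95), with members by the stage tables (-0.82), under 12000 UMIs (-0.86) and as a mean over UMI bands (-0.53). That band mean was called by the stage-table calls (-1.68). At 36 over 24 hpf (-0.85) a call was gained with a score above 0.1 in the integrated (-1.04) or the stage tables (-1.02). The share of Lateral FP among all cells at 48 over 24 hpf (-0.91) met the rule with cells under 2000 UMIs left out (-1.05) and with the deepest 5% left out (-1.01). Between 5000 and 8000 UMIs the median genes were 1854.5, 1717 and 2057.5 at the 3 stages, and the median S score was -0.0878 at 24 hpf and -0.0292 at 36 hpf and the G2M score -0.0939 at 24 hpf. By the stage tables the median S score was -0.137 at 36 hpf and -0.0535 at 48 hpf and the G2M score -0.135 at 36 hpf. The cause of these changes was not tested. Calls in both tables, a stage-table score above 0.1 and the limit of 12000 UMIs were chosen after seeing the data. No paired analysis was possible because each stage has 1 library, which also leaves no replicate to leave out. Band means at 36 over 24 hpf rest on 1 band (log2 ratio 0.21). With band edges moved to 4385, 6658 and 9048 UMIs they rest on 3 bands and changed sign (-0.19), with no call under either. The moved edges gave -1.87 (called) at 48 over 24 hpf and -1.19 (not called) at 48 over 36 hpf.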

Other observations

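The cells that only the stage tables named Lateral FP differed in their calls by integrated class. At 36 hpf 18 of the 26 Pre-V3 IN cells, 11 of the 13 NM Progenitor cells and all 6 FP cells of the integrated table were Lateral FP in the stage table. Of these, 1 Pre-V3 IN cell, 7 NM Progenitor cells and 3 FP cells were called S or G2M. At 48 hpf the stage table gave the name to 13 of 18 CMN Precursor, 10 of 19 NM Progenitor, 11 of 45 Pre-V3 IN and 5 of 7 FP cells, with 2, 7, 0 and 0 of them called S or G2M. Their depth was near that of the class at 36 hpf, with a median of 4587.5 UMIs against 4487.5 in cells named in both tables, and at 48 hpf it was 4719.5 against 5495 in cells named in both. At 24 hpf 13 of the 15 such cells were called S or G2M, and their median was 9324 UMIs.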
